A study of Mus musculus with 6 samples.

Results

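The B7 family costimulatory and coinhibitory ligands were described through 8 genes chosen by their symbols in the deposited annotated table: Cd80, Cd86, Cd83, Cd274, Pdcd1lg2, Icosl, Havcr2 and Vsir. Each symbol matched 1 row, so all 8 of 8 were found among the 16111 genes of that table, and all 8 had enough counts to be tested. The series compares 3 wild-type libraries with 3 Ahrr-deficient libraries of mouse fetal liver macrophages. The product of Ahrr represses the aryl hydrocarbon receptor, a ligand-activated transcription factor, and the labels give the second genotype as AhRR-/-. All 6 libraries came from the strain C57BL/6 RCC, from fetuses at age E13.5, and from cells cultured for 5 weeks in medium with GM-CSF, of which the non-adherent cells were taken. The labels number the mice 1 to 3 in each genotype, and they give neither the construction of the allele nor the litters. Long culture in medium with GM-CSF limits the cells as a model of macrophages in the body.

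Macrophages and dendritic cells show peptides to T cells on MHC molecules, and the ligands of the B7 family set how the T cell answers. CD80 and CD86 bind the activating receptor CD28 and, more tightly, the inhibitory receptor CTLA-4, while the ICOS ligand binds ICOS. PD-L1, the product of Cd274, and PD-L2, the product of Pdcd1lg2, bind the inhibitory receptor PD-1, and VISTA, the product of Vsir, is also inhibitory. CD83 is an immunoglobulin-superfamily protein of maturing antigen-presenting cells that is grouped with the B7 ligands here but has no established receptor of the CD28 family. TIM-3, the product of Havcr2, is neither a ligand nor of the B7 family. It is an inhibitory receptor found on T cells and myeloid cells.

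The sequences before the gene starts are shown for 3 of the genes: Cd80, which rose, and the neighbouring genes Cd274 and Pdcd1lg2, whose levels lay furthest apart. Each is the 250 bases before the RefSeq gene start (GRCm38.p6), 5′ to 3′ on the plus strand, on which all 3 genes lie, and capitals mark a match to one of 7 motifs.
Cd80, chr16:38458683-38458932: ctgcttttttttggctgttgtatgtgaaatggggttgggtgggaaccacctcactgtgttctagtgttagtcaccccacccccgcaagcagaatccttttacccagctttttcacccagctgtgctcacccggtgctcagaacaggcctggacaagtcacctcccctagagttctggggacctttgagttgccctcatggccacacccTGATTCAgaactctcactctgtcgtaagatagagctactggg
Cd274, chr19:29367188-29367437: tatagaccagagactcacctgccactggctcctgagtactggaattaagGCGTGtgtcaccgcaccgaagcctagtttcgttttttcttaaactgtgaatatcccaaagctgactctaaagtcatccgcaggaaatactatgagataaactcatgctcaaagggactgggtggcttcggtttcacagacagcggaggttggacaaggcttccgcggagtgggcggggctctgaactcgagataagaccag
Pdcd1lg2, chr19:29410669-29410918: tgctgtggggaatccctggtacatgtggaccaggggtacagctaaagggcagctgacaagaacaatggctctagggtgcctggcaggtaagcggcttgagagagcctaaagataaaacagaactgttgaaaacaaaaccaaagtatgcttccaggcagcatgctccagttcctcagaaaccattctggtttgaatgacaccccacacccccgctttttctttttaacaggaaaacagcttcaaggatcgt
Both strands were searched for GCGTG (core of the aryl hydrocarbon receptor site), TTCNNNGAA (the interferon-gamma activated site), TGANTCA (AP-1), GAGGAAGT (PU.1), TATAAA (the TATA box), the NF-kB motif and the interferon-stimulated response element. Cd80 held 1 AP-1 match, at -42 to -36 counted from the start, and 6.75% of all 32851 promoters of this length hold that motif. Cd274 held 1 GCGTG match, at -201 to -197, a core found in 28.2% of promoters. Pdcd1lg2 held none of the 7 motifs. Of the other genes, Havcr2 held 1 AP-1 match and 1 PU.1 match, a motif found in 2.44% of promoters, and Icosl and Vsir held none. A match describes letters only and not a bound site. The RefSeq start of Cd80 lies 3372 bases inside the GENCODE gene, so its window is intronic in that annotation.

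Libraries held 3556106 to 41668336 counts, and the shallowest was Ahrr-deficient replicate 1. Ahrr itself had 101, 27 and 38 counts in the wild-type libraries and 8, 107 and 12 in the Ahrr-deficient libraries, which is 4.29 to 5.32 against 1.21 to 2.57 CPM, the counts scaled to the library total, with no overlap. On the log2 scale it changed by -1.21 (SE 0.26, edgeR adjusted p 0.0151), and this call was lost without wild-type replicate 1 (adjusted p 0.0631) or 3 (adjusted p 0.0502). All 13 macrophage markers examined passed the filter on low counts. Among them 10 had a negative and 3 a positive log2 fold change, with a median of -0.26. Their summed level was 23203 to 28826 CPM in wild-type and 17553 to 24305 CPM in Ahrr-deficient libraries, so the ranges overlapped. Most of each sum came from Lyz2, at 17419 to 22740 CPM in wild-type and 12440 to 19165 CPM in Ahrr-deficient libraries (edgeR adjusted p 0.0926). In bulk RNA, fewer cells of a type and less RNA per cell cannot be told apart.

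Of the 8 genes, Cd80 rose and Cd83 fell in Ahrr-deficient macrophages, and the other 6 did not pass the test. These 2 of 8 (25.0%) stand beside 2232 of all 11408 tested genes (19.6%) past the same threshold, an edgeR adjusted p under 0.05, so the share among the 8 was near the background. By direction, 9.62% of all tested genes were higher and 9.95% lower. The median log2 fold change of the 8 genes was -0.33, with 2 positive and 6 negative values, beside 0.01 over all tested genes. An unadjusted edgeR p under 0.05 was found for 5 of the 8, beside 35.8% of all tested genes. Groups did not overlap in CPM for 4 of the 8 genes, Cd80, Cd83, Cd274 and Havcr2, beside 36.6% of all tested genes.

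**Figure D1:**
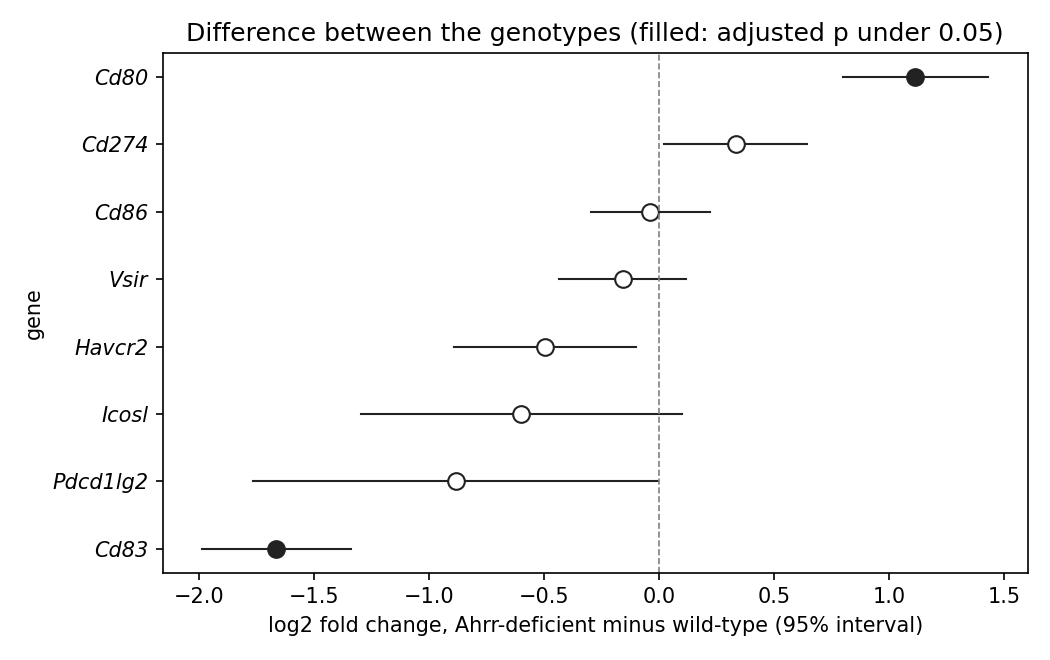
Log2 fold change (x axis, Ahrr-deficient minus wild-type) of each of the 8 genes (y axis), with its 95% interval as a line and a filled point where the edgeR adjusted p was under 0.05. Cd80 at 1.11 and Cd83 at -1.66 are the filled points, and the interval of Pdcd1lg2, the gene with the fewest counts, is the widest.

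Cd80 (ENSMUSG00000075122.4, chromosome 16, 38455561 to 38496335, plus strand, GRCm38) encodes the CD28 and CTLA-4 ligand B7-1. Wild-type replicates 1, 2 and 3 held 304, 88 and 78 of its reads, or 13.9, 14.0 and 10.9 CPM. Ahrr-deficient replicates 1, 2 and 3 held 113, 1281 and 266, or 31.8, 30.7 and 26.9 CPM. Every Ahrr-deficient library lay above every wild-type library, with a gap between 14.0 and 26.9 CPM. The mean rose from 12.9 ± 1.7 to 29.8 ± 2.6 CPM (SD, n = 3). Fitted folds here and elsewhere also hold the TMM scaling, so they differ from the ratio of the CPM means. For Cd80 the fitted rise was 2.16-fold, a log2 fold change of 1.11 (SE 0.14, 95% interval 0.80 to 1.43, edgeR adjusted p 0.00240), and 4.09% of all tested genes changed by at least that size in either direction. It was past the threshold in all 15 alternatives that gave a value, among them each fit that left out 1 library.

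Cd86 (ENSMUSG00000022901.13, chromosome 16, 36603869 to 36666081, minus strand) encodes B7-2, which shares both receptors with B7-1. Its gene lies 1789479 bases from Cd80 on the same chromosome. It had 28.8, 21.7 and 26.5 CPM in wild-type replicates 1, 2 and 3 and 29.8, 26.1 and 24.9 CPM in the Ahrr-deficient replicates. The groups overlapped, with means of 25.7 ± 3.6 and 26.9 ± 2.6 CPM (SD, n = 3). The fitted log2 fold change was -0.04, opposite in sign to the difference of these means, with a 95% interval from -0.30 to 0.22 (SE 0.11, edgeR adjusted p 0.842), which leaves out a change of the size seen for Cd80.

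The ratio of Cd80 to Cd86 reads within a library does not depend on scaling. It was 0.481, 0.642 and 0.413 in wild-type replicates 1, 2 and 3 and 1.07, 1.18 and 1.08 in the Ahrr-deficient replicates. Cd86 had more reads than Cd80 in every wild-type library, and Cd80 had more reads than Cd86 in every Ahrr-deficient library. The same order held per length, with ratios of 0.408 to 0.635 and 1.05 to 1.17. The log2 ratio moved from -0.99 ± 0.32 to 0.15 ± 0.08 (SD, n = 3), a difference of 1.13. The exact permutation test, two-sided, gave p = 0.1, the smallest that 3 against 3 allows, or 0.2 adjusted over the 4 pairs examined.

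Icosl (ENSMUSG00000000732.9, chromosome 10, 78069302 to 78083913, plus strand) encodes the ligand of ICOS, a costimulatory receptor of activated T cells. It had 6.84, 4.60 and 12.5 CPM in wild-type replicates 1, 2 and 3 and 3.37, 5.47 and 6.47 CPM in the Ahrr-deficient replicates. The groups overlapped, and wild-type replicate 3 stood highest. A log2 fold change of -0.60 (SE 0.31, 95% interval -1.29 to 0.10, edgeR adjusted p 0.198) was fitted. Without wild-type replicate 3 it was -0.24, and with no filter on low counts the gene passed the threshold (edgeR adjusted p 0.0497).

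Cd83 (ENSMUSG00000015396.4, chromosome 13, 43784775 to 43803132, plus strand) encodes a surface protein used as a marker of mature dendritic cells, known to stabilise MHC class II and CD86 on the cell surface. Wild-type replicates 1, 2 and 3 held 1259, 352 and 352 of its reads, or 57.4, 55.9 and 49.3 CPM. The Ahrr-deficient replicates held 80, 703 and 168, or 22.5, 16.9 and 16.99 CPM. Every Ahrr-deficient library lay below every wild-type library, with a gap between 22.5 and 49.3 CPM. The mean fell from 54.2 ± 4.3 to 18.8 ± 3.2 CPM (SD, n = 3). In the fit the wild-type level was 3.17-fold the Ahrr-deficient one, a log2 fold change of -1.66 (SE 0.14, 95% interval -1.99 to -1.34, edgeR adjusted p 6.59e-04), a size reached in either direction by 1.5% of all tested genes. By p-value Cd83 stood at position 16 and Cd80 at position 107 among the 11408 tested genes, and Cd83 too was past the threshold in all 15 alternatives.

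Cd83 and Cd86 changed order in read counts but not in every library per length. The ratio of Cd86 to Cd83 reads was 0.502, 0.389 and 0.537 in wild-type replicates 1, 2 and 3 and 1.32, 1.55 and 1.46 in the Ahrr-deficient replicates. Per length the ratio was 0.273 to 0.377 in wild-type and 0.931 to 1.09 in Ahrr-deficient cells, and it stayed below 1 in Ahrr-deficient replicate 1. The log2 ratio rose by 1.61 (exact permutation p = 0.1, two-sided, the smallest this design allows, or 0.2 adjusted over 4 pairs).

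**Figure D2:**
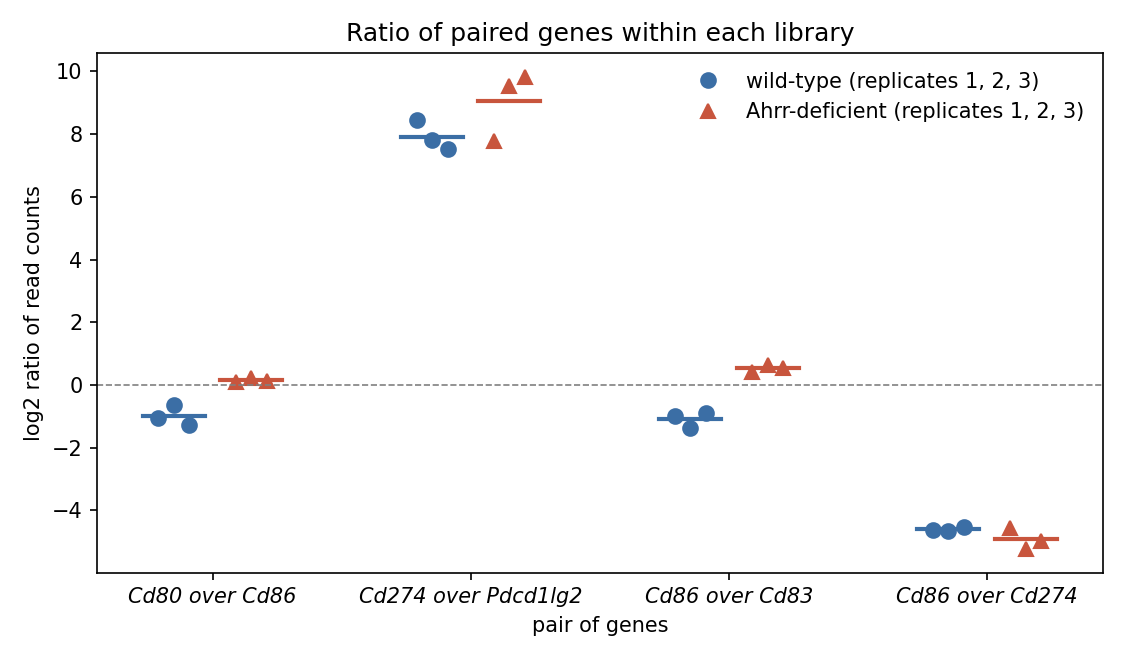
Log2 ratio of read counts of 4 pairs of genes within each library (y axis), with replicates 1, 2 and 3 from left to right, wild-type as circles, Ahrr-deficient as triangles and the mean as a line. For Cd80 over Cd86 and for Cd86 over Cd83 the wild-type libraries lie below 0 and the Ahrr-deficient libraries above it, while the groups overlap in the pairs with Cd274.

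Cd274 (ENSMUSG00000016496.7, chromosome 19, 29367455 to 29388095, plus strand) encodes PD-L1. It had 703, 547 and 610 CPM in wild-type replicates 1, 2 and 3 and 704, 977 and 784 CPM in the Ahrr-deficient replicates. The groups touched: wild-type replicate 1 and Ahrr-deficient replicate 1 stood within 1 CPM of each other, and on the deposited normalized scale their order was turned, at 7463 and 7325. The means were 620 ± 78 and 822 ± 141 CPM (SD, n = 3), with a log2 fold change of 0.33 (SE 0.14, 95% interval 0.02 to 0.64, edgeR adjusted p 0.116). Without Ahrr-deficient replicate 1 it was 0.41 and passed the threshold (edgeR adjusted p 0.0356), and without Ahrr-deficient replicate 2, the highest library, it was 0.19 (edgeR adjusted p 0.361). An exon of AC119228.1 overlaps the gene on the opposite strand, and the library kit named in the labels does not mark strand, so reads of both cannot be told apart.

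Pdcd1lg2 (ENSMUSG00000016498.9, chromosome 19, 29410919 to 29471161, plus strand) encodes PD-L2 and starts 22823 bases after the end of Cd274. Only 44, 15 and 23 reads fell on it in wild-type replicates 1, 2 and 3 and 11, 54 and 8 in the Ahrr-deficient replicates. These are 2.01, 2.38 and 3.22 CPM against 3.09, 1.30 and 0.809 CPM, so Ahrr-deficient replicate 1 lay among the wild-type libraries and the other 2 lay below them. The log2 fold change was -0.88 (SE 0.39, 95% interval -1.77 to -0.0028, edgeR adjusted p 0.139). Without Ahrr-deficient replicate 1 it was -1.14 and passed the threshold (edgeR adjusted p 0.0251).

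The PD-1 ligands were far apart in level. Cd274 had 350.5, 229.9 and 189.3 reads for each read of Pdcd1lg2 in wild-type replicates 1, 2 and 3 and 227.5, 754.2 and 968.5 in Ahrr-deficient replicates 1, 2 and 3. The difference in the log2 ratio was 1.13, but the groups overlapped (exact permutation p = 0.3, two-sided, and 0.3 adjusted over 4 pairs). Without Ahrr-deficient replicate 1 the difference was 1.77, and without Ahrr-deficient replicate 3 it was 0.73. The ratio of Cd86 to Cd274, a costimulatory against a coinhibitory ligand, differed by -0.33 on the log2 scale and overlapped between the groups (exact permutation p = 0.3, two-sided, and 0.3 adjusted over 4 pairs). It was -0.51 without Ahrr-deficient replicate 1 and -0.17 without Ahrr-deficient replicate 2.

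Vsir (ENSMUSG00000020101.14, chromosome 10, 60346851 to 60372684, plus strand) encodes VISTA, an inhibitory protein of myeloid cells. It had 614, 559 and 616 CPM in wild-type replicates 1, 2 and 3 and 572, 482 and 633 CPM in the Ahrr-deficient replicates. The groups overlapped, and both the lowest and the highest library were Ahrr-deficient. The fitted log2 change of -0.16 (SE 0.12, 95% interval -0.43 to 0.12, edgeR adjusted p 0.382) did not pass the threshold.

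Havcr2 (ENSMUSG00000020399.14, chromosome 11, 46454935 to 46481255, plus strand) had 7.89, 8.73 and 11.2 CPM in wild-type replicates 1, 2 and 3 and 6.47, 7.37 and 6.07 CPM in the Ahrr-deficient replicates. All Ahrr-deficient libraries lay below all wild-type libraries, but the gap was small, from 7.37 to 7.89 CPM. The log2 fold change was -0.50 (SE 0.17, 95% interval -0.89 to -0.10) and missed the threshold (edgeR adjusted p 0.0760). It missed it in all 15 alternatives, at adjusted p-values from 0.0629 to 0.209.

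**Figure D3:**
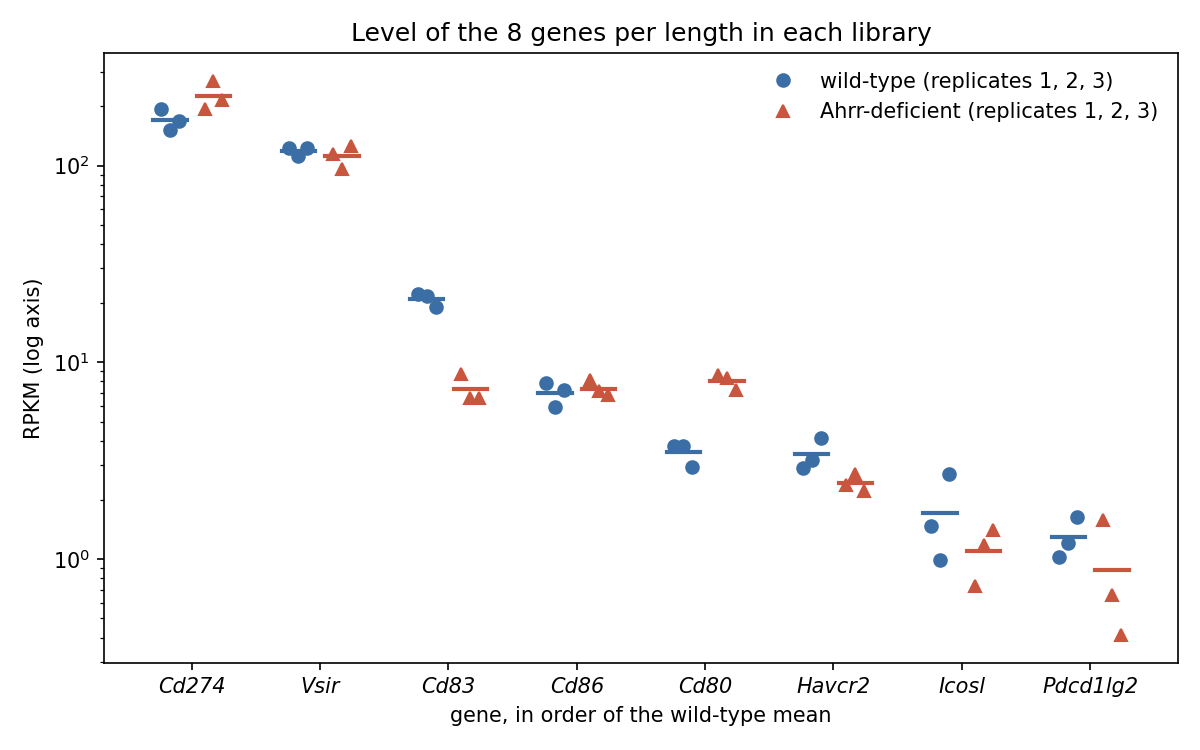
RPKM, the CPM per kilobase of merged exons (y axis, log scale), of the 8 genes in each library, with replicates 1, 2 and 3 from left to right, wild-type as circles, Ahrr-deficient as triangles and the group mean as a line. Cd274 and Vsir lie near or above 100 RPKM in every library, Cd83 falls towards Cd86, and Cd80 rises to the level of Cd86.

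Levels of different genes were compared per length, as RPKM over the merged exons of each gene. In wild-type cells the order of the means was Cd274 (171 ± 22), Vsir (119 ± 6), Cd83 (21.1 ± 1.7), Cd86 (7.01 ± 0.98), Cd80 (3.49 ± 0.47), Havcr2 (3.41 ± 0.63), Icosl (1.73 ± 0.88) and Pdcd1lg2 (1.29 ± 0.32 RPKM, SD, n = 3). The ranges of neighbours in that order were separate except for Cd80 and Havcr2, and for Icosl and Pdcd1lg2. Cd274 stood at position 170 and Vsir at position 322 in mean RPKM among 11399 tested genes with a length, so the transcripts of the inhibitory ligands PD-L1 and VISTA were the most abundant of the 8. In Ahrr-deficient cells Cd274 (227 ± 39 RPKM) and Vsir (112 ± 15 RPKM) kept the first places. Cd80 (8.05 ± 0.69 RPKM), Cd86 (7.35 ± 0.70 RPKM) and Cd83 (7.30 ± 1.25 RPKM) followed, and the ranges of neighbours among these 3 overlapped. Havcr2 (2.44 ± 0.24 RPKM) came next, ahead of Icosl (1.11 ± 0.34 RPKM) and Pdcd1lg2 (0.884 ± 0.614 RPKM), whose ranges also overlapped.

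**Figure D4:**
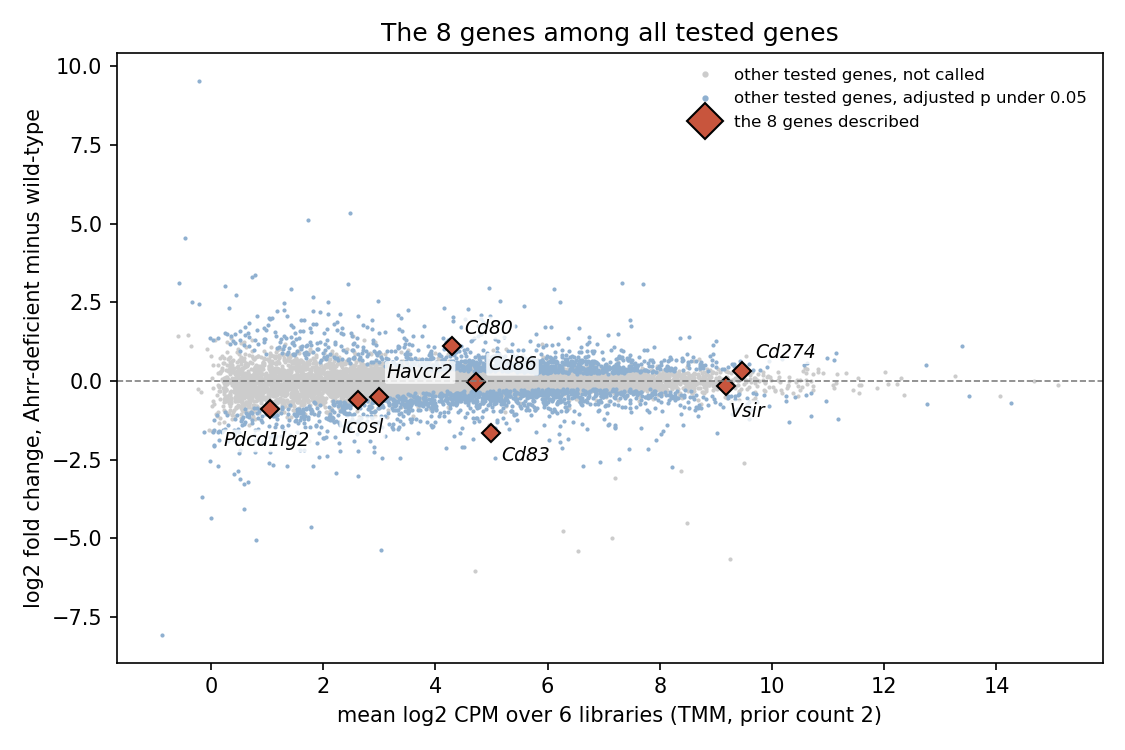
Log2 fold change (y axis, Ahrr-deficient minus wild-type) against the mean log2 CPM over the 6 libraries (x axis) for all 11408 tested genes, with those at an edgeR adjusted p under 0.05 in blue and the others in grey. The 8 genes are red diamonds: Cd80 and Cd83 lie outside the grey band at middle levels, and Cd274 and Vsir lie close to 0 at the right.

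The genes whose pattern over the 6 libraries was most like that of each changed gene were sought by Pearson's r of log2 CPM, among tested genes with a mean of at least 50 counts. For Cd80 they were Papss2 (r = 0.999), an enzyme that makes the sulfate donor of the cell, Arhgap6 (r = 0.996) and Zfp91 (r = 0.995). For Cd83 they were Nisch (r = 0.999), Trem2 (r = 0.999), a lipid-sensing receptor of macrophages, and Txn1 (r = 0.998), the cytosolic thioredoxin. With 6 libraries in 2 genotypes, such values describe a shared step between the genotypes and carry no test. The log2 fold changes differed widely in size at the same likeness, from 1.95 for Papss2 to 0.27 for Zfp91 and from -1.86 for Trem2 to -0.36 for Nisch. The calls of Zfp91 (edgeR adjusted p 0.0309) and Nisch (edgeR adjusted p 0.0201) were lost in most fits that left out 1 library, at adjusted p-values from 0.0597 to 0.146.

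Most listed costimulatory and coinhibitory receptors of T cells had no row. The annotated table held every feature with at least 10 counts over the 6 libraries. A gene without a row therefore had fewer counts or stood under another symbol. The list held 7 genes, some of which, such as Tigit and Btla, are receptors for other ligands. Of the 7 only Cd28 had a row in the annotated table used here, at 2.11 to 5.15 CPM. It missed the threshold (log2 fold change -0.75, edgeR adjusted p 0.0971). Ctla4, Icos and Pdcd1 had no row. Of 8 further B7 and butyrophilin-like ligands only Cd276, the gene of B7-H3, had a row, at 0.624 to 1.12 CPM, which was below the filter. Of 8 T cell markers 2 had a row, Lck and Cd2, and their summed level was at most 0.365 CPM in wild-type and 0.960 CPM in Ahrr-deficient libraries, while Cd3e, Cd4 and Cd8a had none.

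Partners of TIM-3 and VISTA did not share a direction. The lists here and below were chosen with earlier results of these data known. Their shares of called genes are therefore a description and carry no test. Of 8 listed genes 6 were tested, 1 was higher and 1 lower (33.3%, beside 19.6% of all tested genes), with a median log2 fold change of 0.08. Selplg, the gene of the adhesion protein PSGL-1, a partner of VISTA, fell from 484 ± 33 to 284 ± 56 CPM (SD, n = 3; log2 fold change -0.84, SE 0.15, edgeR adjusted p 0.00711). Ceacam1, a partner of TIM-3, rose from 94.1 ± 9.6 to 137 ± 21 CPM (SD, n = 3; log2 fold change 0.46, SE 0.12, edgeR adjusted p 0.0274). That call was lost without wild-type replicate 1, 2 or 3 or Ahrr-deficient replicate 3, at adjusted p-values from 0.0710 to 0.109, and after thinning (adjusted p 0.0521), and reads could be shared with its close relative Ceacam2. Lgals9, the gene of the TIM-3 ligand galectin-9, was not past the threshold (log2 fold change 0.27, edgeR adjusted p 0.102).

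Among 14 other costimulatory and checkpoint genes 8 were tested, of which 2 were higher and 3 lower (62.5%, beside 19.6% of all tested genes), with a median log2 fold change of 0.14. Cd200r1, the inhibitory receptor for CD200, rose from 151 ± 8 to 236 ± 21 CPM (SD, n = 3; log2 fold change 0.57, SE 0.08, edgeR adjusted p 0.00411). Cd47, the "don't eat me" ligand of SIRP-alpha, rose by 0.41 on the log2 scale (edgeR adjusted p 0.0259), a call lost without wild-type replicate 1, 2 or 3 or Ahrr-deficient replicate 2 at adjusted p-values from 0.0668 to 0.0985, and after thinning (adjusted p 0.0575). Tnfrsf14, the gene of HVEM, a receptor for BTLA and LIGHT, fell from 33.9 ± 4.9 to 22.1 ± 3.8 CPM (SD, n = 3; log2 fold change -0.75, SE 0.15, edgeR adjusted p 0.0110), with an adjusted p of 0.0590 without wild-type replicate 1. Cd48, a ligand of CD2-family receptors, was also lower (log2 fold change -0.52, edgeR adjusted p 0.0475), a call lost without each library but Ahrr-deficient replicate 1, at adjusted p-values from 0.112 to 0.153. Nectin2, a ligand of TIGIT and DNAM-1, fell by 0.59 on the log2 scale (edgeR adjusted p 0.0198). Its call was lost without wild-type replicate 1 or 3 or Ahrr-deficient replicate 2, at adjusted p-values from 0.0674 to 0.110, and after thinning (adjusted p 0.0512). Cd40, the receptor for T cell help, had no row in the table used here.

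Proteins known to set how much CD86, MHC class II or PD-L1 stays on the surface were examined through 6 genes. Of these, 3 were higher and 1 lower (66.7%, beside 19.6% of all tested genes), with a median log2 fold change of 0.49. With earlier results known when this small list was chosen, the share carries no test. Cmtm6, which protects PD-L1 from breakdown, rose from 91.4 ± 11.4 to 144 ± 12 CPM (SD, n = 3; log2 fold change 0.59, SE 0.09, edgeR adjusted p 0.00376) and was past the threshold in all 15 alternatives. Its relative Cmtm4 fell by 0.34 on the log2 scale (edgeR adjusted p 0.0383), a call lost without each library but Ahrr-deficient replicate 1, at adjusted p-values from 0.0632 to 0.154, with DESeq2 (adjusted p 0.103), with no filter (adjusted p 0.0974) and after thinning, where the log2 fold change was -0.12. H2-DMa, which loads peptides on MHC class II, rose by 0.60 on the log2 scale (edgeR adjusted p 0.0227). Its call was lost without wild-type replicate 1 or 2 or Ahrr-deficient replicate 2 or 3, at adjusted p-values from 0.0516 to 0.0891. Cd74, of the same list, had only 2 to 68 counts a library, or 0.562 to 3.34 CPM. It was not past the threshold (log2 fold change 0.66, edgeR adjusted p 0.341). March1, a ubiquitin ligase that removes CD86 and MHC class II from the surface, rose by 0.38 on the log2 scale (edgeR adjusted p 0.0346). Its call was lost without wild-type replicate 1, 2 or 3 or Ahrr-deficient replicate 2, at adjusted p-values from 0.0936 to 0.124, and after thinning (adjusted p 0.0689).

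Genes of transcription factors and cytokine signalling were listed as possible regulators of these ligands, and all 22 were tested. Of these, 4 were higher and 5 lower (40.9%, beside 19.6% of all tested genes), with a median log2 fold change of -0.02. Irf4, a transcription factor of dendritic cells and alternatively activated macrophages, rose from 22.4 ± 3.5 to 62.0 ± 10.1 CPM (SD, n = 3; log2 fold change 1.395, SE 0.13, edgeR adjusted p 8.97e-04). Irf8, its relative in the myeloid lineage, fell from 170 ± 13 to 132 ± 4 CPM (SD, n = 3; log2 fold change -0.44, SE 0.07, edgeR adjusted p 0.00631). Ahr, the gene of the receptor that Ahrr represses, had 3.64 to 7.66 CPM in wild-type and 10.97 to 33.2 CPM in Ahrr-deficient libraries (log2 fold change 2.00, SE 0.35, edgeR adjusted p 0.00709). Hif1a, a factor known to act on Cd274 in hypoxia, rose by 0.46 on the log2 scale (edgeR adjusted p 0.0162), with adjusted p-values of 0.0749 without wild-type replicate 1 and 0.0668 without wild-type replicate 2. The remaining higher gene was Myd88, the adaptor of Toll-like receptors (log2 fold change 0.46, edgeR adjusted p 0.0435). The remaining lower genes were the NF-kB subunits Rela and Relb and the interferon receptor chains Ifngr1 and Ifnar2, with log2 fold changes of -0.28, -0.39, -0.51 and -0.32 (edgeR adjusted p 0.0424, 0.0327, 0.0200 and 0.0375). The calls of Myd88, Rela and Ifnar2 were lost without each library but Ahrr-deficient replicate 1, at adjusted p-values from 0.0585 to 0.178. Those of Relb and Ifngr1 were lost without wild-type replicate 1, 2 or 3 or Ahrr-deficient replicate 3, at adjusted p-values from 0.0579 to 0.132. After thinning, Ifngr1 was the one of these 5 genes still past the threshold. Irf1, a transcription factor of the interferon-gamma response known to act on Cd274, was not past the threshold (log2 fold change -0.23, edgeR adjusted p 0.201).

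**Figure D5:**
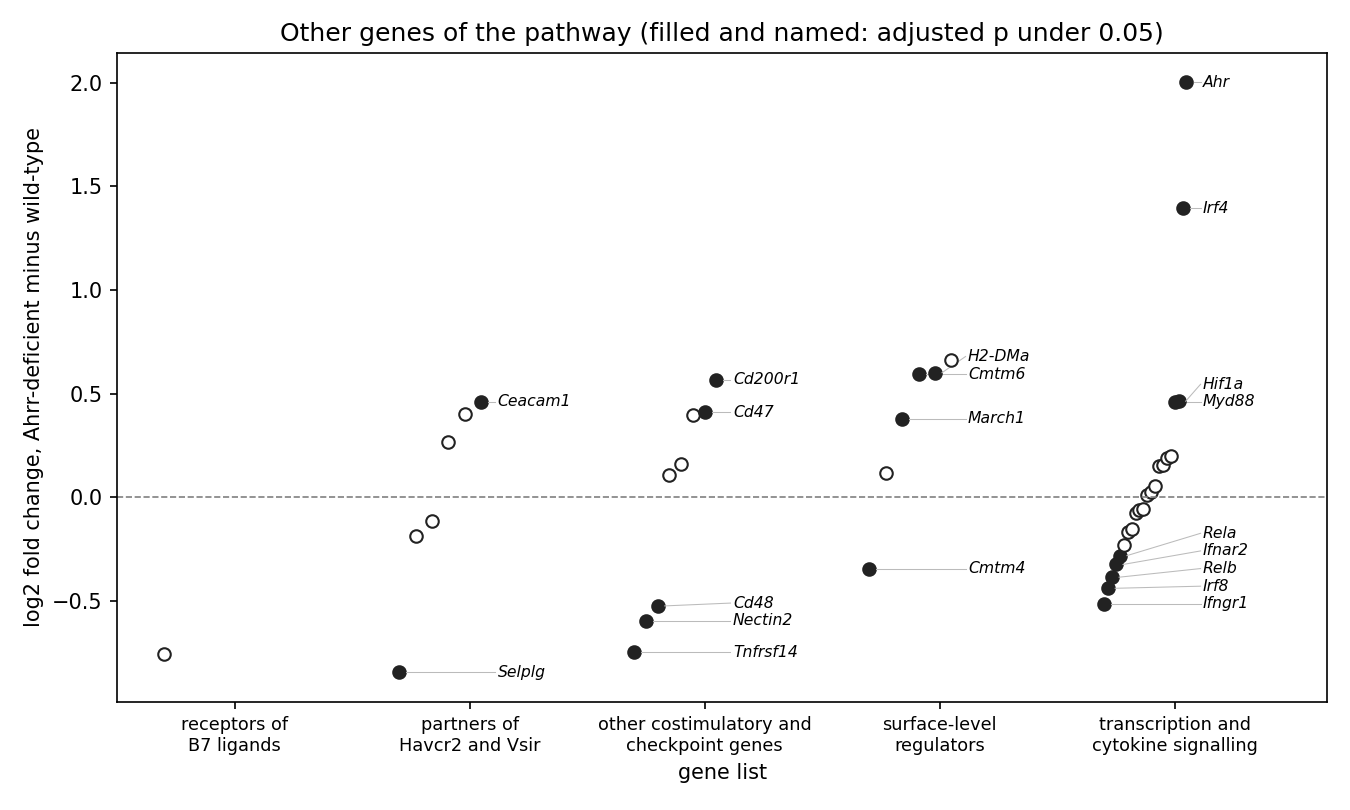
Log2 fold change (y axis, Ahrr-deficient minus wild-type) of the tested genes of 5 lists of the pathway (x axis), sorted within each list, with filled points and names where the edgeR adjusted p was under 0.05. Ahr at 2.00 and Irf4 at 1.395 stand highest, and filled points lie on both sides of 0 in each list that has any.

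Markers of other cells were set beside the changes of Cd80 and Cd83, since dendritic cells express both genes. Of 10 dendritic cell markers 5 had a row, 3 were tested and 1 was higher, and Flt3, Ccr7, Cd209a, Fscn1 and Dpp4 had none. Their summed level was 62.1 to 65.0 CPM in wild-type and 78.4 to 98.1 CPM in Ahrr-deficient libraries. Most of it came from Clec9a, a dendritic cell receptor for dead cells, which rose from 54.5 ± 2.9 to 81.2 ± 11.6 CPM (SD, n = 3; log2 fold change 0.49, SE 0.12, edgeR adjusted p 0.0256). That call was lost without wild-type replicate 1, 2 or 3 or Ahrr-deficient replicate 2, at adjusted p-values from 0.0549 to 0.102. Zbtb46, a factor of conventional dendritic cells, had 4.15 to 5.88 CPM over all libraries (log2 fold change -0.32, edgeR adjusted p 0.228). Batf3, a factor of the same lineage, had 1.27 to 4.48 CPM in wild-type and 4.49 to 6.17 CPM in Ahrr-deficient libraries (log2 fold change 0.76, edgeR adjusted p 0.117). Of the macrophage list, 1 of 13 was higher and 1 lower (15.4%, beside 19.6% of all tested genes). Itgax, the gene of CD11c, rose from 51.3 ± 5.7 to 176 ± 39 CPM (SD, n = 3; log2 fold change 1.70, SE 0.15, edgeR adjusted p 6.96e-04), and Csf1r, the receptor of M-CSF, fell by 0.65 on the log2 scale (edgeR adjusted p 0.0304). The call of Csf1r was lost in each fit that left out 1 library except that without Ahrr-deficient replicate 1, at adjusted p-values from 0.0725 to 0.104. The part of these markers in the changes of Cd80 and Cd83 was not tested. Of the remaining lists, none of 6 B cell markers and none of 7 mast cell and basophil markers had a row. The summed neutrophil, hepatocyte and stromal or endothelial markers were at most 2.22, 1.13 and 1.12 CPM. Among erythroid markers, Epor fell from 17.6 ± 4.5 to 3.92 ± 1.13 CPM (SD, n = 3; log2 fold change -2.44, SE 0.25, edgeR adjusted p 0.00113), and Hba-a1 and Hbb-bs had no row.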

How the data were processed

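RNA of 6 cultures was sequenced, 3 per genotype, with groups and replicate numbers taken from the sample titles. The authors deposited raw read counts per feature, without identifiers, for 53465 features, and a normalized signal per gene with identifiers for 16111 genes. The submitters' processing notes name CASAVA 1.8.2, fastp 0.20.0, STAR 2.7.10b, SAMtools 1.16.1, R 4.3.1, DESeq2 1.40.2 and the build mm10, and the counting program and use of strand are not given in the sources used here. Divided by what 1 read is worth, 100% of the deposited signal values came out whole, within 0.001. The reads so recovered equalled the raw counts of the features with at least 10 counts in all, which gave the counts their identifiers. Features without one held at most 0.0511% of a library and stayed in the totals.

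Genotypes were compared on counts by edgeR 4.0.16 (quasi-likelihood test, two-sided, run in R 4.3.3) after TMM scaling and filterByExpr, with no covariate. Adjustment followed Benjamini and Hochberg over 11408 genes, and the threshold was 0.05. The code was tested on simulated data. Standard errors come from the fold change and F statistic. CPM are counts over the library total, RPKM use merged exons of GENCODE release 21 of mouse (GRCm38), and 0.5 counts were added before log2 ratios. Gene positions and lengths of that release were matched by identifier without its version. For Cd80 and Pdcd1lg2 the version in that release differed from the one given above. Totals differed 11.72-fold, and 3 counts, the floor of detection, were 0.844 CPM in the shallowest library and 0.072 CPM in the deepest. Reads carry no molecular identifiers, and nothing says that cultures were independent beyond the mouse numbers, so p-values measure the spread between these libraries.

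The 8 genes and all lists were chosen with earlier results of these data known, so their shares of called genes are descriptions and not tests. Genes past the threshold in a list were named, at most 4 by p-value, and any other gene named was chosen after its values were seen. Alternatives were RLE and upper-quartile scaling, no filter, a mean count of 50 or more, limma-voom (limma 3.58.1), DESeq2 1.42.0, the replicate number as a block, thinning to the smallest total and leaving out each library. Promoters come from RefSeq, in which 6 of the 8 genes were matched; Cd86 and Cd83 were not. The comparison of proteins could not be run and is not reported.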

Additional observations from a re-analysis of the deposited data

How the results depend on the processing

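Over 16 alternatives, 523 of 655 recomputed values changed neither in sign nor in call, or, for counts, by no more than 1.5 times. The ratios of paired genes, which are among them, were compared by sign only, since their exact permutation p cannot fall below 0.1. Cd80 kept a rise of 0.99 to 1.20 and Cd83 a fall, from -1.78 to -1.58 on the log2 scale, past the threshold in each of 15. The number of the 8 genes past it was 2, but 4 without Ahrr-deficient replicate 1, where Cd274 and Pdcd1lg2 were added, and 3 with no filter, where Icosl was added. Leaving out each library gave 2 to 4. The log2 fold change of Cd86 turned positive after thinning (0.010) and ranged from -0.12 (without Ahrr-deficient replicate 1) to 0.049 (without wild-type replicate 1) when 1 library was left out, with 0.0073 without Ahrr-deficient replicate 3. Of all tested genes, 2232 were called, 1265 after thinning, and 694 (without wild-type replicate 1) to 3857 (without Ahrr-deficient replicate 1) when 1 library was left out. Of 43 tested genes of the other pathway lists 20 were called, 10 after thinning and 6 to 22 when 1 library was left out. The cause was not tested, beyond the loss of reads that thinning itself makes. Leaving out wild-type replicate 2 and Ahrr-deficient replicate 1 together, chosen after seeing the data, gave 2 of the 8 genes and 3192 genes. Upper-quartile scaling lowered the share of higher genes among those called from 49.1% to 41.8%, and no scaling moved the median of all genes by over 0.1.

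Same-numbered libraries come from different mice, and the labels name no litter or batch that joins them. Their deviations from the group means correlated at -0.17, 0.07 and 0.13 for replicates 1, 2 and 3, which cannot show whether they shared one. With the replicate block 1390 genes and 13 genes of the other pathway lists were called, and 2 of the 8 genes. The calls lost with it among genes named in the text were those of March1 (adjusted p 0.0651), Cmtm4 (0.0986), Cd48, Myd88, Rela, Relb, Ifnar2, Zfp91 and Nisch. Depth limited Pdcd1lg2, with 8 to 54 counts a library, which was removed by the filter after thinning and by a mean of at least 50 counts.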
